A study of Mus musculus with 10 samples.

Results

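The DNA replication programme was followed in lung tumours whose libraries were labelled as controls or as knockouts of the glucose transporter Glut1. It was read from 37 genes of the G1/S transition and of DNA replication in 10 RNA sequencing libraries. The genes were chosen by symbol from a list of replication factors. All 37 were found once in the count table, among 39017 rows, and all 37 were among the 15922 genes that passed the filter on low counts. Every library was made from macrodissected lung tumours of C57BL/6 mice. Controls (KP) carried K-rasLSL-G12D/WT and p53Fl/Fl, and KPG1 animals carried Glut1Fl/Fl in addition. Tumours were initiated in both with Ad5CC10-Cre, an adenovirus whose promoter restricts Cre to cells that express CC10, a club cell protein, and were collected 20 weeks and 1 day later. After dissociation, immune cells were removed with anti-CD45 magnetic beads. There were 5 control libraries, all from males with a genotype label of heterozygous fl/wt, and 5 libraries labelled Glut1KO with a label of homozygous fl/fl, of which replicates 1 to 3 were female and 4 and 5 male. The deposited names carry a second number, of unstated meaning, that control replicates 1, 2 and 5 share, as do control replicates 3 and 4 and Glut1KO replicates 4 and 5. Libraries are treated as replicates, and nothing states that each came from its own animal, so p-values measure only the spread between these libraries.

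The genes encode the machinery that copies the genome once per cell cycle. Cyclin E with its kinase phosphorylates the retinoblastoma protein and frees E2F transcription factors, which switch on most of these genes at the end of G1. The origin recognition complex, CDC6 and CDT1 then load the MCM2 to MCM7 helicase onto origins, CDC45, the GINS complex and MCM10 activate it, and polymerases synthesise DNA behind it on the sliding clamp PCNA. Ribonucleotide reductase and thymidylate synthase supply deoxynucleotides, and CAF-1 and UHRF1 restore nucleosomes and DNA methylation behind the fork. In tumours, the summed RNA of such genes is commonly read as a sign of the share of cells in cycle.

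Depth ran from 35.3 to 49.8 M counts per library, and the deepest was control replicate 2 (Control 2 below), with the other controls between 40.1 and 41.4 M. A member had between 71 and 8985 counts in a library. Levels are given as CPM, counts scaled to a common library size, after TMM scaling, and levels are compared between genes only per kb of exon. Exon length was the union of all annotated exons of a gene, so ranks per kb depend on the annotated transcripts. The gene targeted for deletion was checked first. Slc2a1, which encodes Glut1, was at 118, 86.7, 92.6, 103 and 73.2 CPM in controls 1 to 5 and at 60.3, 42.5, 34.6, 92.4 and 103 CPM in the libraries labelled Glut1KO. Replicates 4 and 5 therefore lay inside the control range, and the difference, a log2 fold change of -0.62 ± 0.29 (SE, limma adjusted p = 0.658), did not pass the threshold. Counts cover the whole gene, so reads from outside a deleted part would be included.

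The promoters of the members are shown first. Whether their letters bear on the levels was not tested. RefSeq promoter windows (GRCm38.p6), 250 bases before to 50 bases after a start site, matched 31 of the 37 symbols and gave 36 windows. Gins1, Gins2, Mcm4, Ccne2, Pole and Rfc2 had no entry. The windows were searched on both strands for TTCCCGC and TTGGCGC, 2 short forms of the E2F site, whose reverse complements are GCGGGAA and GCGCCAA. Matches were counted wherever they began, and a GCGCCAA followed by T also holds a CCAAT. Either form was present in 19 of the 36 windows (52.8%), from 18 genes, against 6.81% of 32851 windows of all genes and 11.2% of the 13832 windows of genes tested here. Of 21 windows from a list of 25 mitosis genes, 3 (14.3%) had either form. The 4 members printed cover a polymerase, the helicase, ribonucleotide reductase and a chromatin factor, each with at least 1 match before the start site, and were picked after the matches were seen. Mcm7 and Uhrf1 each have another window, not printed, with 2 matches and 0 matches. The start site of the Mcm7 window printed lies 1156 bases downstream of the first start of that gene in GENCODE, and that of the other lies 539 bases downstream, so the letters shown for Mcm7 are inside the gene. Only the 250 bases before the start are printed, 5′ to 3′ in the direction of the gene, with E2F letters in capitals. The window of Pola1 held 3 matches in these bases, at 169, 138 and 121 bases before the start, and those of Rrm1, Mcm7 and Uhrf1 held 1 each, at 67, 113 and 48 bases.
Pola1 (chrX:93632156-93632405, minus strand): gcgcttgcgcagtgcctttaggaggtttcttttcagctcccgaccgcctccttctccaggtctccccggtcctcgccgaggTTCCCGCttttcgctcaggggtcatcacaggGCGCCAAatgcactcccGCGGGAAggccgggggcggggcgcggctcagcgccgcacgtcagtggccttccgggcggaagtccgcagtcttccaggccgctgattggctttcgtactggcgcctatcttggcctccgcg
Rrm1 (chr7:102441445-102441694, plus strand): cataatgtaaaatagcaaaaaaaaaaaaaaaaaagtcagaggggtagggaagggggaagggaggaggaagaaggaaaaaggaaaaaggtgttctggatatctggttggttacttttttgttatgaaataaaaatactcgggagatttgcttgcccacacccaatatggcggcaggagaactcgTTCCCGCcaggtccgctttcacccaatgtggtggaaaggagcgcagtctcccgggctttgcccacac
Mcm7 (chr5:138171267-138171516, minus strand): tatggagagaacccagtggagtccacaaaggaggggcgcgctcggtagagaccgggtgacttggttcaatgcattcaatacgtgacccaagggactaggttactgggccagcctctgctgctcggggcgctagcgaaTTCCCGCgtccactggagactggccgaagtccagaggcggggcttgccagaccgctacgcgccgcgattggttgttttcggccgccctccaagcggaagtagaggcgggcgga
Uhrf1 (chr17:56303087-56303336, plus strand): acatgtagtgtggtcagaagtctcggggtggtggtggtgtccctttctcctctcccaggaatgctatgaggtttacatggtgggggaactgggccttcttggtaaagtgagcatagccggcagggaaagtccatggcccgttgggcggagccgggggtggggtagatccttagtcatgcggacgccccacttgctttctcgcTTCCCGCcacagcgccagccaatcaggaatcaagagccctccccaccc

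The CCAAT box (CCAAT or ATTGG), an element of many cell cycle promoters, was in 58.3% of the member windows, 37.4% of all windows, 36.9% of the windows of genes tested and 81.0% of the mitosis windows. The CHR element TTTGAA (or TTCAAA), known from genes of mitosis, was in 11.1% of the member windows, 17.9% of all windows and 12.01% of the windows of genes tested, against 71.4% of the mitosis windows. A match is a description of letters in a window and not a mapped site.

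Across the 37 genes no difference between the groups passed the test. With limma, adjusted over 15922 genes, 0 members were called higher and 0 lower, and 0 of all genes were called either (0%). At an unadjusted p under 0.05 there was 1 member, Pola1, lower in the libraries labelled Glut1KO, where 7.68% of all genes were under this limit in either direction and 4.02% were under it and lower. edgeR's quasi-likelihood test likewise called 0 members, with 1 of 37 under the unadjusted limit, beside 1409 of all 15922 genes. DESeq2 called 0 members, with 2 of 37 under that limit, beside 1715 of all 15922 genes. It called 215 genes in all (1.35%). The median log2 fold change of the members was -0.11, beside -0.005 over all genes, and 8 of 37 were above 0. All fold changes lay between -0.38 and 0.22 on the log2 scale. The 95% limma interval included 0 for 36 of the 37, and reached from -1.02 at its lowest (Pole) to 0.74 at its highest (Rrm2), so that a log2 difference beyond 1 lay outside the interval of 36 members.

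**Figure D1:**
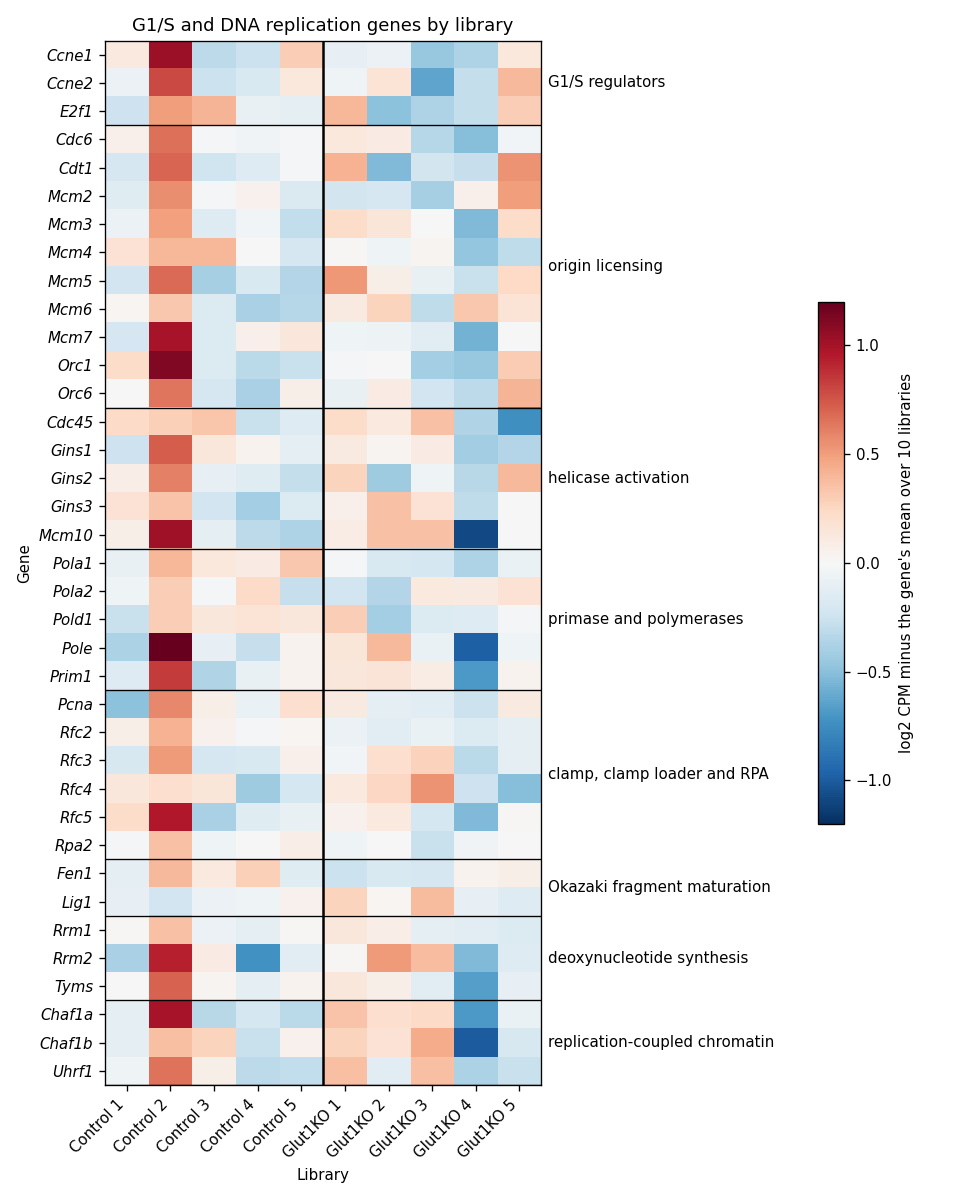
Level of each of the 37 genes in each of the 10 libraries, as log2 CPM minus the gene's own mean (colour, red above and blue below it). Rows are grouped by role and the vertical line separates the 5 controls from the 5 libraries labelled Glut1KO. The Control 2 column is red for nearly every gene, with 31 of 37 genes at their highest value there, and the Glut1KO 4 column is mostly blue, with 17 at their lowest.

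Most members had their highest value in the same library. Control 2 held the highest value of all 10 libraries for 31 of 37 members (83.8%), where 16.2% of all genes were highest in it, and it lay above every other control for 35 members (94.6% against 28.4%). Its level was 1.55 times the mean of the other controls for the median member, and 0.971 times for the median gene. The ratio reached from 0.882 for Lig1, which was lowest of all libraries there, to 2.76 for Pole, the catalytic subunit of the leading-strand polymerase. The 6 members with their highest value elsewhere were Lig1, Mcm6, Cdc45, Gins3, Rfc4 and Chaf1b. At the other end, Glut1KO 4 held the lowest value for 17 members (45.9% against 12.3% of all genes) and lay below every other library labelled Glut1KO for 22 (59.5% against 22.2%). There the median ratio to the other 4 was 0.757, beside 0.967 over all genes. Since the pattern was known from an earlier look at these libraries, it is given with no test.

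Summed over the 37 genes, the level was 943, 1510.4, 992, 945 and 982 CPM in controls 1 to 5 and 1084, 1022, 981, 845 and 1043 CPM in the libraries labelled Glut1KO 1 to 5. Apart from Control 2, the controls thus lay between 943 and 992 CPM, inside the range of the libraries labelled Glut1KO. Controls 1 and 5, which share the number in their names with Control 2, were not high. The median SD of a member's log2 CPM among controls was 0.33, and 0.19 with Control 2 left out, while over all genes it was 0.32 and 0.26. Among the libraries labelled Glut1KO it was 0.29 for the members and 0.35 for all genes.

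**Figure D2:**
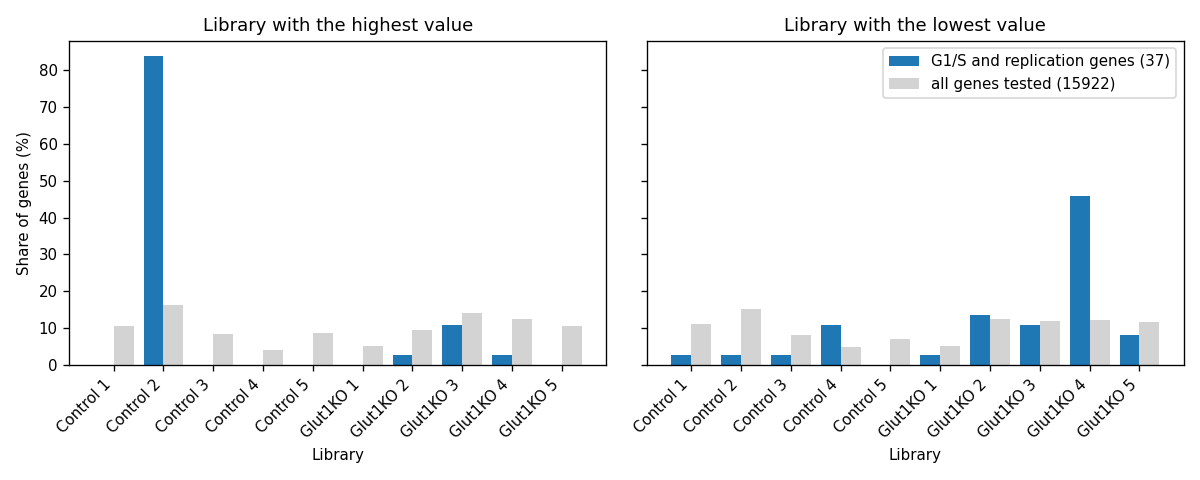
Share of genes (%) that have their highest value (left) or lowest value (right) in each library, for the 37 replication genes (blue) and for all 15922 genes tested (grey). Control 2 holds the highest value of 83.8% of the replication genes and Glut1KO 4 the lowest of 45.9%, against 16.2% and 12.3% of all genes.

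Marker genes of several other cell types were also low in Control 2, and those of fibroblasts were not. Control 2 had the lowest summed level of alveolar type 2 markers, 27102 CPM against 51149 to 74844 in the other controls and 50266 to 68869 in the libraries labelled Glut1KO, and 8 of the 10 markers were lowest in it. Summed endothelial markers were at 108 CPM in Control 2, 177 to 400.2 in the other controls and 191 to 549 in the libraries labelled Glut1KO, with 8 of 10 lowest in Control 2. Ciliated cell markers summed to 11.3 CPM in Control 2, 42.4 to 293 in the other controls and 18.0 to 64.8 in the libraries labelled Glut1KO. Of these markers, 7 of 9 were lowest in Control 2. Club cell markers summed to 2099 CPM in Control 2, 5116 to 11848 in the other controls and 3029 to 9085 in the libraries labelled Glut1KO. Of these markers, 2 of 7 were lowest in Control 2. Fibroblast markers summed to 2571 CPM in Control 2, inside the 1060 to 3323 CPM of the other controls, with 0 of 10 lowest there. Alveolar type 1 markers summed to 1399 CPM, inside 1302 to 2232 CPM, with 3 of 8 lowest there. Erythroid markers summed to 237 CPM against 272 to 1462 in the other controls and 189 to 751 in the libraries labelled Glut1KO, with 1 of 6 lowest in Control 2. Leukocyte markers summed to 997 CPM in Control 2, 4809 to 11356 in the other controls and 1983 to 7922 in the libraries labelled Glut1KO. Of these markers, 4 of 12 were lowest in Control 2. The sum was dominated by Lyz2, a lysozyme gene also active in alveolar type 2 cells. Between the groups, Ptprc, the gene of CD45, lay at 2.30 to 3.26 CPM in controls and at 5.05 to 10.1 CPM in the libraries labelled Glut1KO, and the groups did not overlap. Of the 11 leukocyte markers tested, 8 were above 0 and 3 below, 4 had an unadjusted p under 0.05, all higher (3.66% of all genes), 3 had groups that did not overlap, all higher (0.798%), and 0 were called. All 10 endothelial markers were above 0, with a median of 0.64, and 0.35 without Control 2, and 1 had an unadjusted p under 0.05. Cd3e, a T cell marker, had no counts in at least 1 library. The 14 genes of dissociation stress were all below 0 in fold change, summed at 6547 to 8647 CPM in controls and 4417 to 6859 CPM in the libraries labelled Glut1KO. Of these, 6 had an unadjusted p under 0.05 (4.02% of all genes, lower), 3 had groups that did not overlap (1.06%, lower), the smallest limma adjusted p was 0.230 and 0 were called. The part that these differences have in the level of the replication genes was not tested. In such bulk RNA, fewer cells of a type and less RNA per cell cannot be told apart.

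Without Control 2 the median of the list changed sign. The median log2 fold change of the members was then 0.02 and 21 of 37 were above 0, and 0 passed the test. Leaving out Glut1KO 4 instead gave -0.06, with 15 above 0, and leaving out both gave 0.10 and 24. Among male libraries only, the median was -0.22 with 7 above 0, and without Control 2 it was -0.08 with 14. The 3 female libraries labelled Glut1KO, set against the controls, gave a median of -0.11 with 14 above 0. No female control exists, so sex and genotype cannot be told apart in that comparison. Sex also went with Slc2a1 among the libraries labelled Glut1KO. The males, replicates 4 and 5, were at 92.4 and 103 CPM, inside the control range. The females were at 60.3, 42.5 and 34.6 CPM, below every control. Estimates among male libraries, here and below, thus set controls against libraries with Slc2a1 in the control range.

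**Figure D3:**
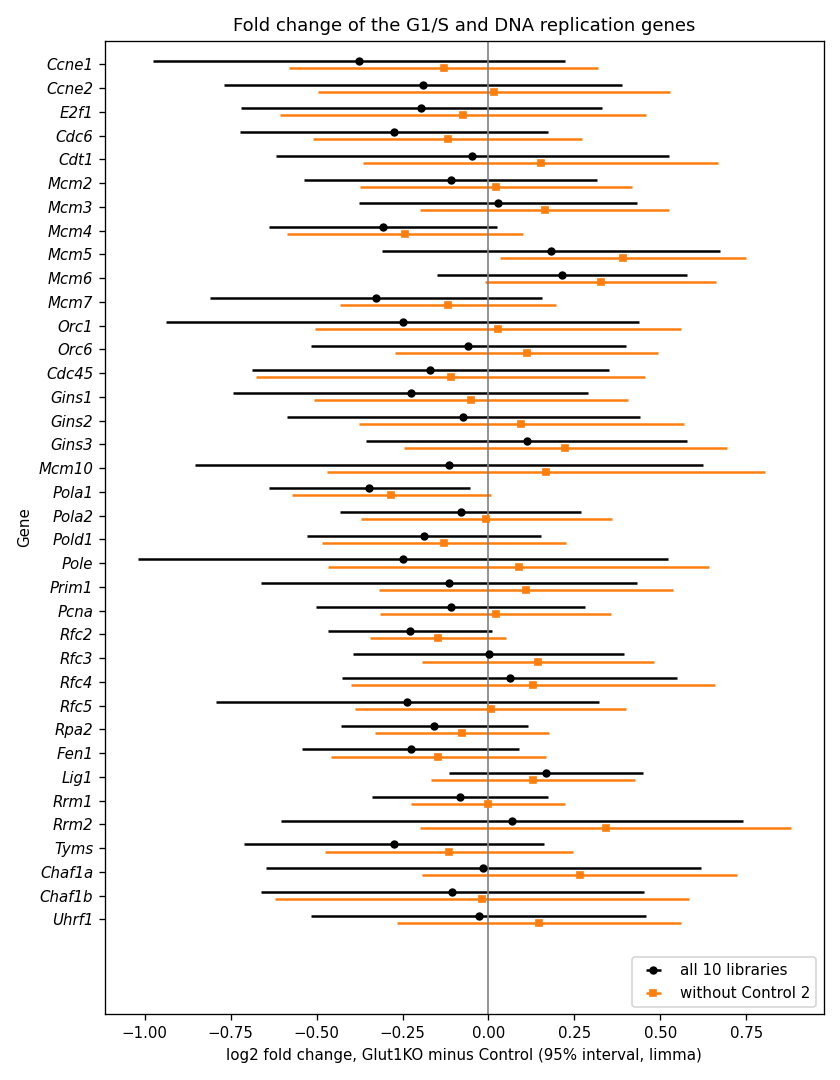
Log2 fold change of each gene, Glut1KO minus Control, with its 95% interval from limma, over all 10 libraries (black circles) and without Control 2 (orange squares), ordered by role. Nearly all orange squares lie to the right of the black circle of the same gene. The interval of Pola1 over all libraries, -0.64 to -0.05, and that of Mcm5 without Control 2 do not include 0.

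Among the regulators of the transition, Ccne1, which encodes cyclin E1, had the highest level per kb. It was at 8.30, 15.5, 6.15, 6.41 and 9.36 CPM in controls 1 to 5 and at 7.16, 7.27, 5.57, 5.92 and 8.33 CPM in the libraries labelled Glut1KO. Control 2 stood above the other 9, which overlapped. The groups averaged 9.15 ± 3.81 and 6.85 ± 1.12 CPM (SD, n = 5 each) and the log2 fold change was -0.38 ± 0.27 (SE, limma adjusted p = 0.770). This estimate, the largest in size among the members, was -0.13 without Control 2. Ccne2, for cyclin E2, and E2f1, an activator of replication genes, had estimates of -0.19 each, and both were also highest in Control 2. Without that library their estimates were 0.02 and -0.07.

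Origin licensing held 10 members, 9 of them highest in Control 2, and 3 had estimates above 0. Mcm7 (chromosome 5, 138164583 to 138172422, minus strand, GRCm38), a helicase subunit, had the highest level of the role per kb. It was at 71.8, 164, 73.9, 86.2 and 90.9 CPM in controls and at 79.7, 79.1, 75.2, 55.7 and 83.0 CPM in the libraries labelled Glut1KO. Control 2 was 2.03 times the mean of the other controls and Glut1KO 4 was the lowest of all, while the other 8 libraries overlapped. The means of 97.4 ± 38.1 and 74.5 ± 10.9 CPM (SD, n = 5 each) differed by -0.33 ± 0.22 on the log2 scale (SE, limma adjusted p = 0.756), and by -0.12 without Control 2. Within the gene lie the microRNAs Mir25 and Mir93, on the same strand.

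Mcm4 (chromosome 16, 15623897 to 15637400) encodes another subunit of this helicase. It was at 64.3, 75.3, 75.3, 57.5 and 49.7 CPM in controls and at 57.8, 55.2, 58.4, 41.5 and 46.2 CPM in the libraries labelled Glut1KO. Controls 2 and 3 were high and the groups overlapped. The log2 fold change was -0.31 ± 0.15 (SE, limma adjusted p = 0.677), with means of 64.4 ± 11.2 and 51.8 ± 7.56 CPM (SD, n = 5 each). Mcm4 differed by -0.54 among male libraries and by -0.15 for the female libraries labelled Glut1KO against controls. An exact 2-sided permutation test of its mean log2 CPM gave p = 0.0952.

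For Mcm6 and Mcm5, 2 further subunits, the estimates pointed the other way. Mcm6 (chromosome 1, 128331590 to 128359664) was at 72.8, 89.3, 63.7, 54.7 and 56.4 CPM in controls and at 77.1, 85.8, 57.9, 89.5 and 80.0 CPM in the libraries labelled Glut1KO. It was the only member with its highest value in Glut1KO 4, level with Control 2. The difference was 0.22 ± 0.17 (SE, limma adjusted p = 0.778) and 0.33 without Control 2. Mcm5 (chromosome 8, 75109569 to 75128439) was at 32.2, 60.7, 28.8, 33.3 and 29.7 CPM in controls and at 54.2, 39.7, 35.6, 31.4 and 44.8 CPM in the libraries labelled Glut1KO. Control 2 was the highest of the 10, and the other 4 controls lay between 28.8 and 33.3 CPM, below all but 1 of the libraries labelled Glut1KO. The log2 difference was 0.18 ± 0.22 (SE, limma adjusted p = 0.867) with all libraries and 0.39 ± 0.16 without Control 2 (limma adjusted p = 0.524). The remaining licensing genes were Mcm2 (-0.11), Mcm3 (0.03), Orc1 (-0.25), Orc6 (-0.06), Cdc6 (-0.27) and Cdt1 (-0.05), with adjusted p from 0.773 to 0.982.

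Since MCM2 to MCM7 form a ring with 1 copy of each, their levels were set side by side per kb of exon. Mcm7 was the highest of the 6 in 6 libraries, Mcm4 in 2 and Mcm6 in 2. Mcm2 was lowest in 8 libraries and Mcm5 in 2. The union of annotated exons was 6.956 kb for Mcm2. For the other 5 it ran from 3.589 kb (Mcm4) to 4.666 kb (Mcm6), so the place of Mcm2 depends on the length used. The highest exceeded the lowest by between 1.74-fold (Glut1KO 5) and 3.32-fold (Control 2). Mcm6 stood at 0.93 to 1.30 times the mean of the other 5 in controls and at 1.04 to 2.00 times in the libraries labelled Glut1KO, and these ranges overlapped. Mcm7 stood at 2.24 times the mean of the other 5 in Control 2 and at 1.15 times in Glut1KO 4.

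**Figure D4:**
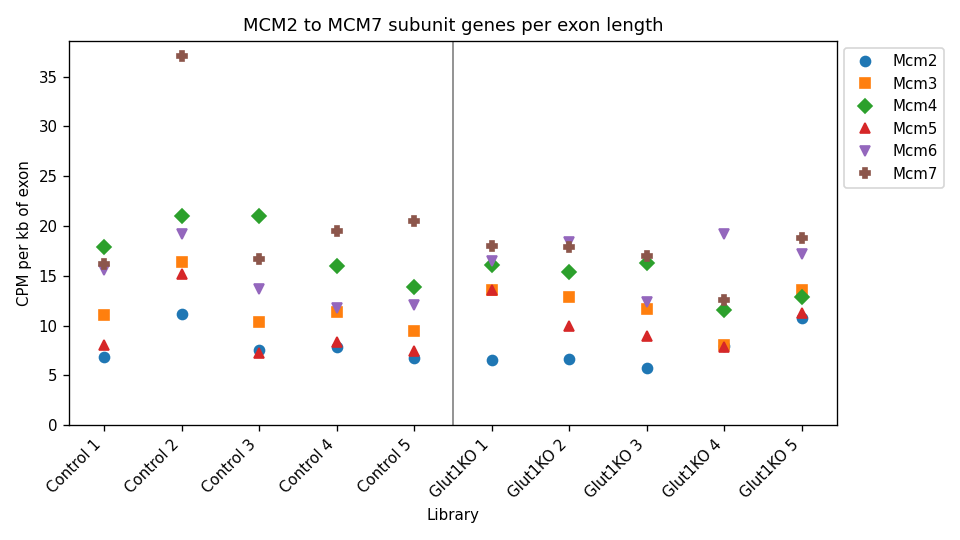
Level of the 6 MCM2 to MCM7 genes in each library, in CPM per kb of exon, 1 marker per gene, with controls to the left of the line. In Control 2, Mcm7 is at 37.1 CPM per kb and Mcm2 at 11.2, and in Glut1KO 4, Mcm6 is highest at 19.2.

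The 5 members that activate the helicase were low in level, at 1.29 to 2.77 CPM per kb on average. Gins1, a GINS subunit with the highest level of the role, was at 3.44, 6.775, 4.495, 4.22 and 3.79 CPM in controls and at 4.41, 4.18, 4.40, 3.07 and 3.22 CPM in the libraries labelled Glut1KO. Control 2 was above the other 9, which overlapped. Its log2 fold change was -0.23 ± 0.23 (SE, limma adjusted p = 0.841), with -0.05 without Control 2 and -0.51 among male libraries. Cdc45 (-0.17), Mcm10 (-0.11), Gins2 (-0.07) and Gins3 (0.11) differed by less than their own SE, and Mcm10 spread from 4.39 CPM in Glut1KO 4 to 18.8 CPM in Control 2.

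All 5 genes of primase and the polymerases had estimates below 0 and were highest in Control 2, Pold1 by a margin within rounding. Pola1 (chromosome X, 93304767 to 93632155, minus strand), the catalytic subunit of the polymerase that starts each DNA strand, had the smallest p of the 37. It was at 17.8, 24.9, 20.7, 20.3 and 23.6 CPM in controls and at 18.7, 16.7, 16.3, 14.6 and 17.8 CPM in the libraries labelled Glut1KO. Control 1 was level with the libraries labelled Glut1KO, and the other 4 controls lay above them all. The means of 21.4 ± 2.82 and 16.8 ± 1.57 CPM (SD, n = 5 each) differed by -0.35 on the log2 scale (SE 0.13, limma adjusted p = 0.591), and by -0.28 without Control 2. The exact 2-sided permutation p was 0.0238, unadjusted, where this p was computed for 242 genes of all lists and 0.00794 is the smallest they can give.

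Pold1, the catalytic subunit of the lagging-strand polymerase, had the highest level of the role per kb. It was at 20.6, 30.5, 27.2, 27.8 and 27.2 CPM in controls and at 30.5, 18.8, 22.1, 22.2 and 24.4 CPM in the libraries labelled Glut1KO. Control 1 was low and Glut1KO 1 high, so that the groups overlapped. The log2 fold change was -0.19 ± 0.16 (SE, limma adjusted p = 0.792). Pole, Prim1 (a primase subunit) and Pola2 (a partner of Pola1) had estimates of -0.25, -0.11 and -0.08, and Pole and Prim1 were 0.09 and 0.11 without Control 2.

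The clamp and its loader include the most abundant member per kb. Pcna, the sliding clamp, averaged 47.4 CPM per kb, and the next, Mcm7, 19.4. It was at 79.5, 167, 117, 106 and 128 CPM in controls and at 120.3, 104, 102, 93.7 and 120.4 CPM in the libraries labelled Glut1KO. Controls held both the lowest and the highest value. The difference was -0.11 ± 0.18 on the log2 scale (SE, limma adjusted p = 0.901) and 0.02 without Control 2.

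Rfc2 (chromosome 5, 134581366 to 134601805, plus strand), a subunit of the loader, was the only member whose groups did not overlap. It was at 39.3, 49.9, 38.7, 37.02 and 38.0 CPM in controls and at 35.6, 33.9, 35.3, 33.2 and 34.6 CPM in the libraries labelled Glut1KO. The lowest control stood just above the highest library labelled Glut1KO, and Control 2 stood apart from the other controls. Over all genes, 1.06% had every library labelled Glut1KO below every control. The means of 40.6 ± 5.27 and 34.5 ± 0.967 CPM (SD, n = 5 each) differed by -0.23 on the log2 scale (SE 0.11, limma adjusted p = 0.668), and by -0.15 without Control 2. The exact 2-sided permutation p was 0.00794, unadjusted and the smallest possible. Groups of 5 that do not overlap always give this value, so it adds nothing to the lack of overlap. Of its exon bases, 15.1% are shared with Lat2 on the other strand. Rfc3 (0.0004), Rfc4 (0.06), Rfc5 (-0.24) and Rpa2 (-0.16), the last a subunit of the single-strand binding protein, had adjusted p of at least 0.784.

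**Figure D5:**
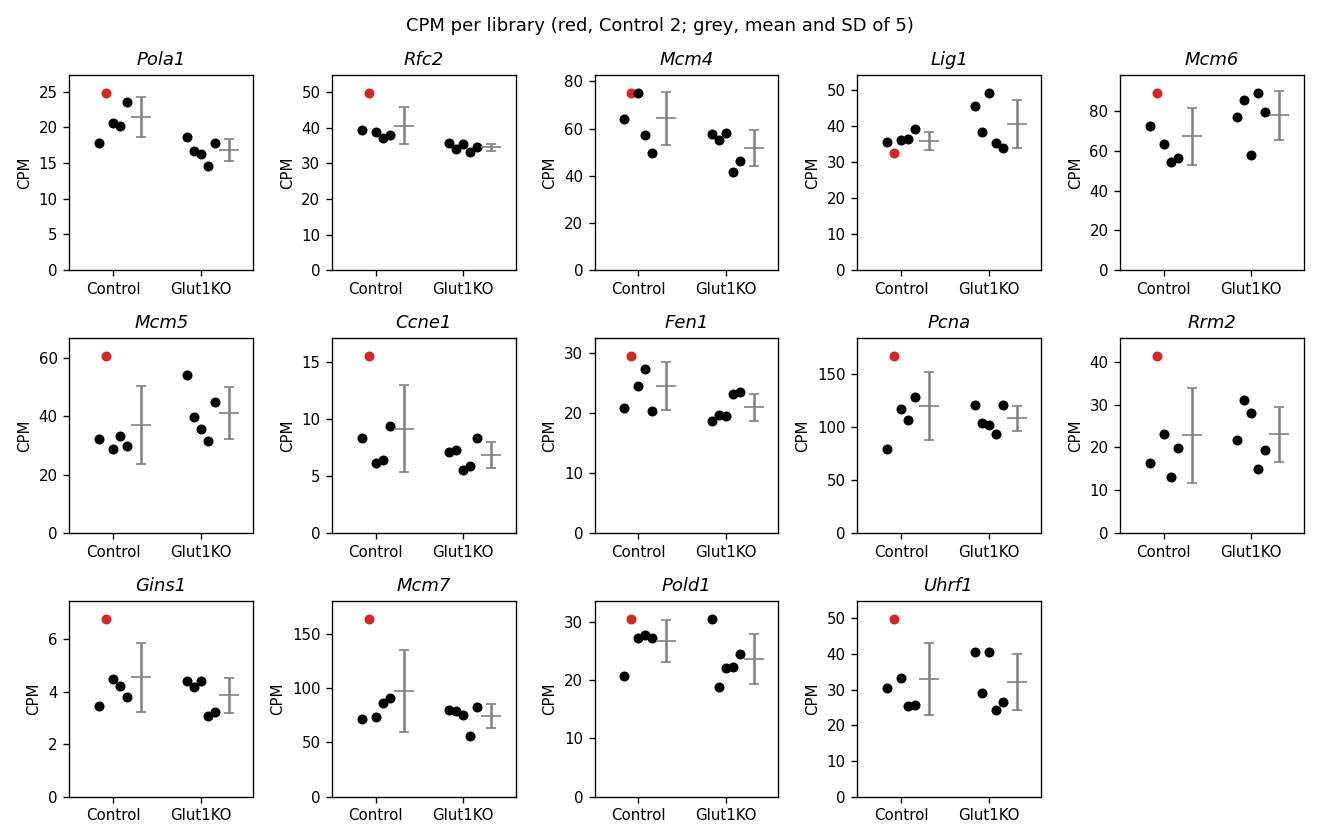
CPM in each library for the 14 genes described library by library (points, red for Control 2), with the mean and SD of the 5 libraries of each group in grey. Control 2 is the top point of the controls for all but Lig1, and Rfc2 is the only gene with no overlap between the groups.

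Lig1 and Fen1, the ligase and the flap nuclease that finish Okazaki fragments, differed in pattern. Lig1 (chromosome 7, 13277283 to 13311433) was at 35.5, 32.4, 36.0, 36.5 and 39.2 CPM in controls and at 45.6, 38.4, 49.3, 35.4 and 34.0 CPM in the libraries labelled Glut1KO. It was lowest in Control 2, and the groups overlapped, with the highest pair of libraries labelled Glut1KO above every control. The log2 fold change was 0.17 ± 0.13 (SE, limma adjusted p = 0.776), and -0.05 among male libraries. Fen1 was at 20.9, 29.6, 24.5, 27.4 and 20.4 CPM in controls and at 18.8, 19.8, 19.6, 23.2 and 23.6 CPM in the libraries labelled Glut1KO. The groups overlapped, and the estimate was -0.23 ± 0.14 (SE, limma adjusted p = 0.745). An antisense gene, Gm10143, covers 78.8% of the Fen1 exon bases, so reads of the pair may not be told apart.

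The 3 genes of deoxynucleotide supply were all highest in Control 2. Rrm2, the inducible subunit of ribonucleotide reductase, was at 16.5, 41.4, 23.2, 13.1 and 19.9 CPM in controls and at 21.8, 31.0, 28.1, 14.999 and 19.5 CPM in the libraries labelled Glut1KO. Its spread among libraries was wide in both groups, and the estimate was 0.07 ± 0.31 (SE, limma adjusted p = 0.972), or 0.34 without Control 2. Rrm1, the large subunit, differed by -0.08 and Tyms, thymidylate synthase, by -0.28. Without Control 2 these 2 differed by -0.0009 and -0.11.

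Uhrf1, which brings the maintenance DNA methyltransferase to replicated DNA, was at 30.5, 49.8, 33.3, 25.4 and 25.8 CPM in controls and at 40.6, 29.0, 40.6, 24.3 and 26.4 CPM in the libraries labelled Glut1KO. Control 2 was highest and the rest of the libraries overlapped. The estimate was -0.03 ± 0.22 (SE, limma adjusted p = 0.985), with 0.15 without Control 2 and -0.35 among male libraries. Chaf1a and Chaf1b, subunits of the histone chaperone CAF-1, had estimates of -0.02 and -0.11. Chaf1a shares 52.5% of its exon bases with Ubxn6, and Gins2 67.3% with Gse1, in each case on the other strand.

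Levels in Control 2 were also read against the promoter letters. The median ratio of Control 2 to the other controls was 1.497 for the 18 genes with the letters and 1.65 for the 13 with a window and none. Of these, 13 and 12 had their highest value in Control 2. In 9 windows of 7 genes (Cdc6, E2f1, Fen1, Lig1, Mcm7, Pcna and Uhrf1) most of the bases before the start lie inside the span of the gene, downstream of its first start. Without these windows, 15 of 27 (55.6%) held the letters, and the median ratios were 1.44 for 15 genes with them and 1.67 for 12 without.

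Outside the 37 genes, 119 further genes of the cell cycle were read from the same fit, in 8 lists, and 0 were called in either direction. Of these, 32 were above 0, the median was -0.08 and 68 were highest in Control 2. The 25 genes of mitosis were all highest in Control 2, summed at 1190.1 CPM against 465 to 649.8 CPM in the other controls, and their median moved from -0.18 to 0.08 without it. Mki67, a marker of cycling cells, was at 166 CPM in Control 2 and at 61.2 to 102 CPM in the other controls, with 74.2 to 129.96 CPM in the libraries labelled Glut1KO. Top2a, topoisomerase II alpha, had 119 CPM there against 53.1 to 86.9 and 47.1 to 90.2 CPM.

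Among those 119, 5 (4.20%) had an unadjusted p under 0.05, all of them lower, which is near the 4.02% of all genes that were lower at this limit. Cdk6, a G1 kinase partner of the D cyclins, averaged 9.38 ± 2.65 CPM in controls and 4.81 ± 2.19 in the libraries labelled Glut1KO (SD, n = 5 each). Its log2 fold change was -1.04 ± 0.31 (SE, limma adjusted p = 0.440). Cdkn2b, an inhibitor of that kinase, differed by -0.89 (adjusted p = 0.554) and Cdkn2a, at the neighbouring locus, by -1.06 (adjusted p = 0.616). Cdkn2a spread from 14.3 to 101 CPM among the libraries labelled Glut1KO and from 54.2 to 97.8 CPM among controls. Myc, which drives growth and G1 entry, and Atrip, a partner of the replication checkpoint kinase ATR, differed by -0.53 and -0.39. In the lists of further replication machinery, the smallest p in each direction belonged to Pole2 (0.41, adjusted p = 0.761) and Mcm9 (-0.33, adjusted p = 0.667).

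The genes outside the list whose pattern over the 10 libraries lay nearest to the mean of the members, by root mean square difference of centred log2 CPM, were Riok2 (0.089), Sfswap (0.091), Adat1 (0.092), Paxip1 (0.092), Rnf216 (0.094) and Srpk1 (0.095). Of the members, Tyms (0.12) and Cdc6 (0.13) lay nearest to that mean and Pole (0.34) farthest.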

How the data were processed

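Polyadenylated RNA of 10 CD45-negative tumour cell fractions, 5 per group, was sequenced from TruSeq stranded mRNA libraries as single-end reads. The submitters' processing notes name bcl2fastq 2.17, cutadapt 1.4.2, HISAT2, featureCounts 1.4.4, edgeR and the build mm10. Whether the counting used strand is not given in the sources used here. The deposited files hold raw counts per Ensembl gene, made by the authors without normalization. The 10 single files equalled the combined table in 10 of 10 cases. A further table of log2 values was not used.

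Counts were scaled by TMM (edgeR 4.0.16) and filtered with filterByExpr (minimum count 10, minimum total 15). They were fitted with voom and limma 3.58.1 (R 4.3.3) on group alone, with 2-sided p-values adjusted by Benjamini-Hochberg over the 15922 genes tested and a threshold of 0.05. The code was tested on simulated data. Single genes also had an exact permutation test over all assignments of 5 and 5. Gene positions and exon lengths came from GENCODE M21, which held 96.6% of the gene IDs. Of the 36 promoter windows, 32 had 15-base words after the start in the gene's own transcripts, on the same strand, and 0 on the reverse strand. In 9, most of the 250 bases before the start lay inside the gene's GENCODE span.

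The members, lists, motifs and tests were chosen with earlier results of these data known. Every member could be named. Those given library by library had the 3 smallest p in each direction, the highest level per kb in their role, or groups that did not overlap. Each other list could give its gene of smallest p on either side, with Slc2a1, Mki67 and Top2a as references. Cdkn2a, Myc, Ptprc, Lyz2 and Cd3e were added after their values were seen. Alternatives covered sex, sharing of name numbers, replicate numbers, edgeR, DESeq2 1.42.0, scaling, filters, thinning, quality weights and each library left out. Combinations that leave out Control 2 were chosen after seeing the data. Depth was 35.3 to 49.8 M counts per library, and a member had at least 71 counts in each.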

Additional observations from a re-analysis of the deposited data

Results flagged for a closer look

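In each group of 5 libraries, a value was singled out where its gap to the nearest library, over the group's range, exceeded Dixon's limit of 0.71. Of 112 groups of values checked 28 exceeded it, where chance gives about 1 in 20 (5.6), and the values of related genes are not independent. Control 2 accounted for 24, and since its high values were known before the genes were chosen, these restate that pattern and give it no further support.

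For 15 genes Control 2 stood high in this sense, with CPM of 164 for Mcm7 (71.8 to 90.9 in the other controls), 95.2 for Rrm1 (69.1 to 75.1), 77.8 for Mcm2 (46.8 to 54.7), 61.5 for Mcm3 (35.5 to 42.5), 60.7 for Mcm5 (28.8 to 33.3) and 49.9 for Rfc2 (37.02 to 39.3). It was also high at 39.6 for Chaf1a (15.8 to 18.5), 38.1 for Pole (11.9 to 16.0), 33.7 for Tyms (19.1 to 21.1), 28.5 for Prim1 (12.4 to 16.4) and 24.3 for Cdt1 (12.6 to 14.7). The remaining 4 were Mcm10 at 18.8 (7.16 to 9.72), Cdc6 at 13.8 (8.45 to 9.04), Ccne2 at 13.01 (6.30 to 8.20) and Orc1 at 6.44 (2.39 to 3.47).

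Summed over lists, Control 2 stood high at 1510.4 CPM for all members (943 to 992), 614 for origin licensing (362 to 382), 145 for primase and polymerases (82.4 to 98.4) and 170.2 for deoxynucleotide synthesis (101 to 116). The same held at 106 CPM for replication-coupled chromatin (53.5 to 64.9), 41.0 for the G1/S regulators (21.3 to 25.7), 1190.06 for mitosis (465 to 649.8) and 588 for nucleotide and histone supply (395 to 423). Its total of 49.8 M counts was high as well (40.1 to 41.4 M).

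Among the libraries labelled Glut1KO, replicate 4 was low for Mcm7 at 55.7 CPM (75.2 to 83.0 in the others) and for Prim1 at 9.91 CPM (16.5 to 17.8). Replicate 3 was low for Rpa2 at 15.9 CPM (18.5 to 19.1), and replicate 5 was high for the summed CDK inhibitors at 413 CPM (274 to 309.6).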

How the results depend on the processing

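Under 27 alternatives, 24 of them planned, 0 members passed the threshold in any, with a smallest adjusted p of 0.227 (Pola1, DESeq2). From 0 to 4 of the 37 had an unadjusted p under 0.05. The 4 came with sex as a covariate and no Control 2, where 2238 of 16101 genes were under this limit. With library totals it was 0 members, beside 1131 of 15922 genes. The median log2 fold change of the members ranged from -0.22 to 0.10, below 0 in 24 alternatives and above 0 in 3, all of which leave out or down-weight Control 2 (0.02 without it, 0.02 with sample quality weights, 0.10 without Control 2 and Glut1KO 4). Without Control 2 it stayed below 0 among male libraries and with sex as a covariate, at -0.08 each. The number of members above 0 ranged from 5 to 24. Of 378 fold changes of the 14 genes described library by library, 27 had the opposite sign to the main estimate, and 0 passed the threshold. Over all genes the count called, 0 in the main fit, was 3 with sex as a covariate, 1 among male libraries, 9 for the female libraries labelled Glut1KO against controls, 2 with libraries summed by name number and 215 with DESeq2, and from 0 to 1 with each library left out in turn. The cause of these differences was not tested. Control 2 held the highest value of 31 members with DESeq2 size factors or thinned counts (16.5% and 15.9% of all genes) and of 35 with library totals (22.5% of all genes). With the replicate number as a block the median was -0.12 and 0 members and 0 genes were called. Same-numbered libraries showed little common deviation from their group means (correlations from -0.132 to 0.197 over 5 numbers). Such correlations cannot exclude a pairing by number. With the name number as a random block (consensus correlation 0.0703) 0 genes were called. In these 5 libraries per group the median SE of a member's log2 fold change was 0.22.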
